A study of Mus musculus with 6 samples.

Results

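The kidney of an Alport mouse that had received early hEV treatment was compared with a wild-type kidney, to show which genes that are off the wild-type level in untreated disease were still off after treatment. UMIs, the unique molecular identifiers that count captured RNA molecules, were summed over all spots of each 10x Visium library, and a gene was compared where it reached 20 scaled CPM in either library, which kept 6695 of 32285 genes. The early treated library came from a B6.Cg-Col4a5tm1Yseg mouse at 5 months of age, titled Early treated 5m AS and labelled with hEV treatment, and the library set against it from a B6C57 wild-type mouse (WT). The other 4 libraries were late treated 5m AS (same allele, hEV treatment), untreated 5m AS, untreated 2m AS, and 1 mixed library of a wild-type and a heterozygous female. The labels name no Cre or promoter for the allele, and all kidneys were embedded in OCT, frozen and cut into 10 um cryosections. The sex of the mice outside the mixed library, the age of the WT mouse, and the dose and dates that define early treatment are not stated in the labels.

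In Alport syndrome, inherited defects weaken the type IV collagen network of the glomerular basement membrane. The network of the mature filter is built from alpha 3, alpha 4 and alpha 5 chains, encoded by Col4a3, Col4a4 and the X-linked Col4a5. Loss of a chain leads over time to proteinuria, tubular injury, infiltration by immune cells and interstitial fibrosis, so most of the late disease signal in whole kidney lies outside the glomerulus. Injured proximal tubule cells switch on Havcr1 (KIM-1) and Vcam1 and lose transporters, while distal nephron cells secrete Lcn2 (NGAL).

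Each group was 1 library, so no difference could be checked against replicates and none was tested. The range in parentheses after a ratio is its exact 95% counting interval (Clopper-Pearson), which leaves out any difference between animals or sections. The early treated library held 48940875 UMIs in 3549 spots and the WT library 79699180 UMIs in 4093 spots, with medians of 12736 and 17790 UMIs per spot, and 626 and 71 spots with fewer than 5000 UMIs. Mitochondrially encoded genes took 6.003% of UMIs in the early treated library and 11.9% in WT, against 7.09 to 8.32% in the other 4. Per the file headers the early treated counts came from Space Ranger 1.3.1 and the WT counts from 1.2.1, so group and software version cannot be told apart. The 2 libraries shared 3083 spot barcodes, which on Visium slides name positions of a common grid and not cells. Kidney markers were present in both, with Slc34a1, the proximal phosphate transporter, at 3865 scaled CPM in early treated and 6946 in WT, and Aqp2, the collecting duct water channel, at 261 in early treated and 201 in WT. In sections of whole tissue, fewer cells of a type and less RNA per cell cannot be told apart.

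The sections also differed in their make-up. Spots were put into 4 strata by which marker group was highest in them. Of the spots, 37.6% in early treated and 19.6% in WT were led by early proximal tubule genes, and 13.4% in early treated and 48.6% in WT by late proximal tubule genes. Thick ascending limb genes led 13.7% of spots in early treated and 6.40% in WT, and distal tubule and collecting duct genes 35.2% in early treated and 25.4% in WT. These strata are ranges of spots and not cell types.

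Col4a5 (mm10 chromosome X, 141475385 to 141689234, plus strand, ENSMUSG00000031274) stood at 5.52 scaled CPM in early treated, 5.57 in late treated, 3.39 in untreated 5m AS, 6.55 in 2m AS, 13.2 in the mixed library and 11.9 in WT. The 4 Alport libraries were therefore the 4 lowest, and the early treated level was 0.465 times WT (0.407 to 0.530). Col4a3 was at 74.5 scaled CPM in early treated and 62.1 in WT, a ratio of 1.2 (1.15 to 1.25). Col4a4 was at 88.9 scaled CPM in early treated and 107 in WT, a ratio of 0.833 (0.804 to 0.863). Col4a6, which pairs with alpha 5 in other basement membranes, was below 1 scaled CPM in both. Col4a3 and Col4a4 were thus within 1.5-fold of WT beside a low Col4a5, but with plain CPM, a scaling described below, their log2 ratios were 0.72 for Col4a3 and 0.19 for Col4a4, which turns Col4a4 to the higher side.

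Across the 6695 compared genes, 195 (2.91%) were higher by 2-fold or more in early treated than in WT and 179 (2.67%) lower by as much, while 5470 (81.7%) lay within 1.5-fold. The median log2 ratio of all compared genes was -0.19. Among the higher genes, 126 were below 20 scaled CPM in WT, and among the lower genes 52 were below it in early treated. This split depends on the scaling. With plain CPM, without TMM factors, the median moved to 0.29 and 459 genes were higher and 45 lower, so that 91.1% of calls were on the higher side, against 52.1% with TMM factors. Ratios below are with TMM factors, and with plain CPM all ratios of early treated to WT move up by the same step. Ratios of the other libraries to WT move by steps of their own, downwards for 2m AS.

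Outside the immunoglobulin genes, the highest ratios to WT among the compared genes were those of Havcr1 and Lcn2, both markers of injured tubule. Havcr1 (ENSMUSG00000040405, mm10 chromosome 11, 46735080 to 46779578, plus strand), the phosphatidylserine receptor KIM-1 of injured proximal tubule, stood at 94.0 scaled CPM in early treated, 21.1 in late treated, 152 in 5m AS, 9.02 in 2m AS, 0.703 in the mixed library and 0.395 in WT. Early treated was above every other library but untreated 5m AS, and 238-fold above WT (163 to 362). Lcn2 (ENSMUSG00000026822, mm10 chromosome 2, 32384633 to 32388252, minus strand), the iron-siderophore binding protein NGAL, was at 60.9 scaled CPM in early treated, 15.8 in late treated, 129 in 5m AS, 5.53 in 2m AS, 2.09 in the mixed library and 0.512 in WT. Its ratio to WT was 119 (85.3 to 171). Of the 25 genes of the tubular injury and failed repair list, 22 were measured (a mean of at least 5 scaled CPM over the 6 libraries), and 19 of these were at least 1.5-fold higher in early treated and 0 lower. Their median log2 ratio was 1.45, against -0.12 over all 10608 genes that passed the same filter, of which 821 (7.74%) passed 1.5-fold upwards and 1090 (10.3%) downwards. Members low in WT, such as Havcr1 and Lcn2, passed this filter through the Alport libraries and had little room to count as lower. The same holds for members low in WT in the lists below, and how many there were was not counted.

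Further injury genes were closer to their untreated level. Vcam1, the adhesion molecule of failed-repair proximal tubule, was at 123 scaled CPM in early treated, 136 in 5m AS and 10.4 in WT. Cd44, a hyaluronan receptor of activated tubule, was at 23.1 scaled CPM in early treated, 22.0 in 5m AS and 2.09 in WT. Spp1, the secreted matrix protein osteopontin, was at 4230 scaled CPM in early treated, 6202 in 5m AS and 665 in WT. Spp1 was above WT in the mixed library too. In spots thinned to 5000 UMIs, described below, its mean per spot was 27 in early treated, 11.7 in the mixed library and 2.89 in WT. Both Vcam1 and Cd44 were more than 11-fold above WT in the early treated kidney, at 11.9-fold (10.97 to 12.8) and 11.1-fold (9.29 to 13.2). The members nearest to WT were Krt8 at 158 scaled CPM in early treated and 132 in WT, Hmox1 at 31.5 in early treated and 27.3 in WT, and Krt7 at 109 in early treated and 117 in WT. These encode 2 keratins of simple epithelium and the haem-degrading enzyme heme oxygenase 1.

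**Figure D1:**
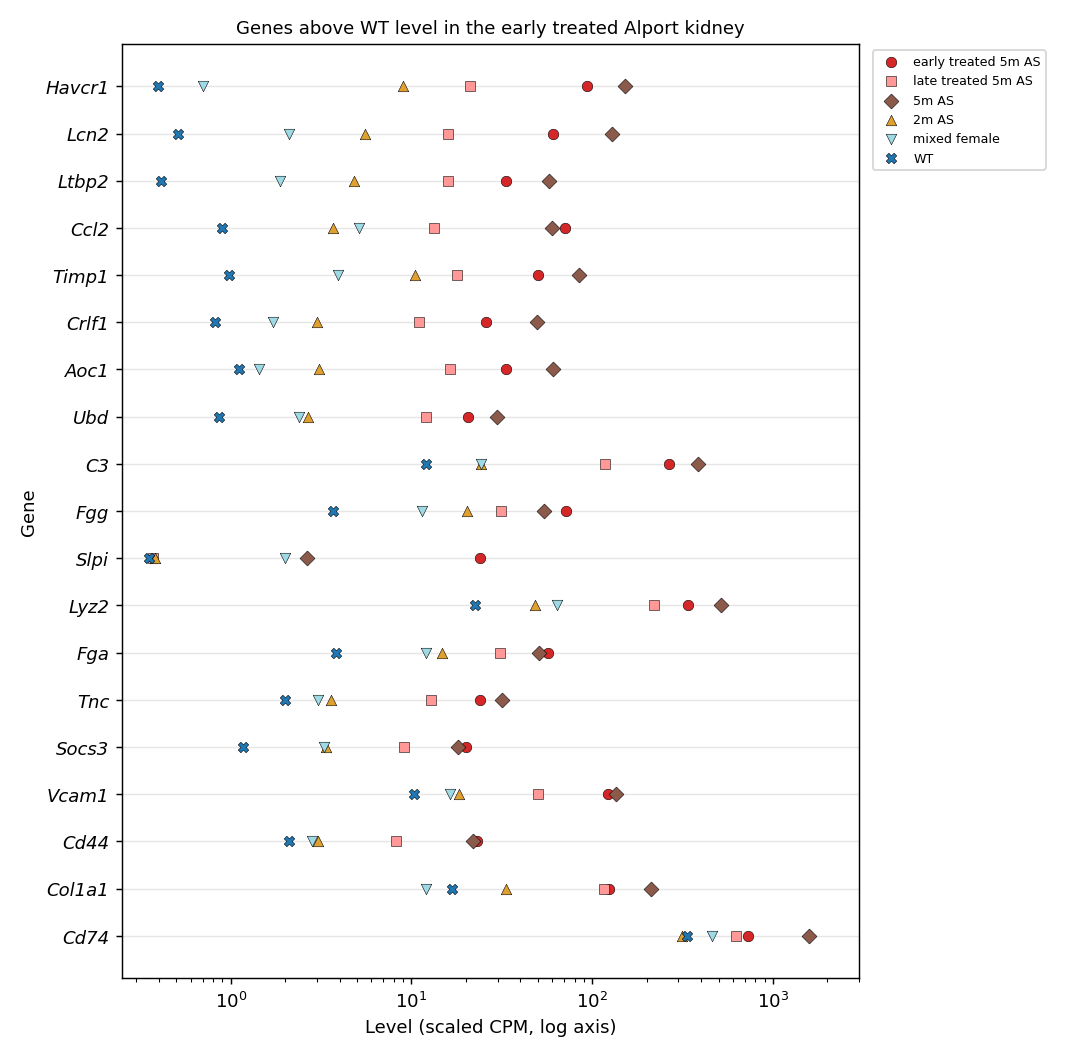
Levels of 19 genes above WT in the early treated kidney, in scaled CPM on a log axis, with 1 point per library. Havcr1 sat at 94.0 in early treated, 152 in untreated 5m AS and 0.395 in WT, and Slpi was far above the other libraries in early treated alone.

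Slpi stood apart from the other genes of this group. It encodes secretory leukocyte protease inhibitor (ENSMUSG00000017002, mm10 chromosome 2, 164354070 to 164389095, minus strand). Its level was 24.0 scaled CPM in early treated, 0.373 in late treated, 2.65 in 5m AS, 0.380 in 2m AS, 1.99 in the mixed library and 0.351 in WT, so early treated was 68.4-fold above WT (45.8 to 107). Its UMIs were gathered in few spots: 36 spots, the top 1%, held 63.1% of the 1383 Slpi UMIs of the early treated library, and a single spot held 235. For Havcr1 the top 1% of spots held 26.7% of 5417 UMIs in that library.

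Spots were thinned to 5000 UMIs each, leaving out shallower ones, so that shares of spots could be set side by side. Havcr1 had a UMI in 26.4% of early treated spots (24.8 to 28.0%, exact binomial interval), 42.2% of 5m AS spots and 0.149% of WT spots. Without thinning the Havcr1 shares were 42.0% in early treated and 0.660% in WT. Lcn2 had a UMI in 21.3% of early treated spots, 42.8% of 5m AS spots and 0.249% of WT spots. The UMIs of both genes were more gathered in early treated than in 5m AS. The 10% of spots with most UMIs held 72.3% of Havcr1 UMIs in early treated and 51.4% in 5m AS, and 73.7% of Lcn2 UMIs in early treated and 45.9% in 5m AS. Such a share also rises as a gene gets sparser. Mean UMIs per spot were 0.609 in early treated and 0.832 in 5m AS for Havcr1, and 0.431 and 0.725 for Lcn2. The part of sparseness in this gap was not tested. Vcam1 reached 38.9% of early treated spots, 45.8% of 5m AS spots and 4.38% of WT spots, at a mean of 0.767 UMIs per spot in early treated, 0.789 in 5m AS and 0.0460 in WT. The share with at least 3 Vcam1 UMIs was 7.80% in early treated and 7.56% in 5m AS.

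**Figure D2:**
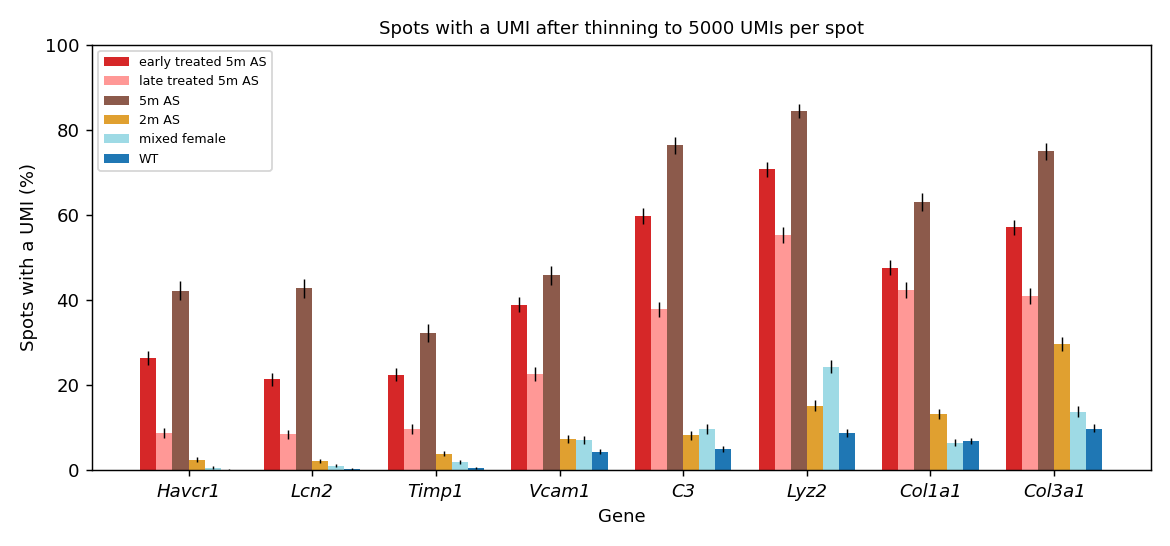
Share of spots with a UMI for 8 injury, matrix and immune genes after thinning every spot to 5000 UMIs, by library, with exact 95% binomial intervals that treat spots as independent draws. Early treated bars lie below untreated 5m AS and above WT for all 8 genes, for example 26.4%, 42.2% and 0.149% for Havcr1.

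Chemokines and immune cell genes were also above WT. Ccl2, the monocyte chemoattractant MCP-1, was at 71.1 scaled CPM in early treated, 13.3 in late treated, 59.5 in 5m AS, 3.67 in 2m AS, 5.12 in the mixed library and 0.892 in WT. Early treated was the highest of the 6 libraries, at 79.7-fold WT (61.9 to 104). Of 26 genes in the chemokine and NF-kB list 21 were measured, and 19 of these were at least 1.5-fold higher and 0 lower, with a median log2 ratio of 1.86. Cxcl1, a neutrophil chemoattractant, was at 14.97 scaled CPM in early treated, 23.04 in 5m AS and 0.673 in WT. Cxcl10, which draws T cells, was at 45.8 scaled CPM in early treated, 40.5 in 5m AS and 8.32 in WT. The 2 members within 1.5-fold of WT were Cxcl14, at 36.2 scaled CPM in early treated and 39.1 in WT, and Cxcl12, at 108 in early treated and 91.5 in WT, though with plain CPM Cxcl12 had a log2 ratio of 0.69, past that limit.

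All 14 measured of 17 macrophage genes exceeded WT by 1.5-fold or more, with a median log2 ratio of 1.89. Lyz2, the lysozyme of myeloid cells, was at 338 scaled CPM in early treated, 220 in late treated, 516 in 5m AS, 48.5 in 2m AS, 63.8 in the mixed library and 22.4 in WT. It had a UMI in 70.7% of early treated, 84.5% of 5m AS and 8.68% of WT spots after thinning. C1qa, a complement C1q chain made by resident macrophages, was at 105 scaled CPM in early treated, 178 in 5m AS and 28.6 in WT. Csf1r, the receptor for macrophage colony-stimulating factor, was the member nearest to WT, at 35.2 scaled CPM in early treated and 22.6 in WT. All 8 measured of 10 MHC class II genes, which present antigen to CD4 T cells, were at least 2-fold higher, against 418 of all 10608 genes past the same filter. Cd74 was at 725 scaled CPM in early treated, 1585 in 5m AS and 334 in WT. Of 12 T and NK cell genes only Ccl5 was measured, at 46.6 scaled CPM in early treated and 9.78 in WT, and of 8 neutrophil genes none was.

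Several immunoglobulin transcripts were higher than in untreated 5m AS as well as WT. Ighg2c, a heavy chain constant region gene, was at 118 scaled CPM in early treated, 0.194 in late treated, 23.3 in 5m AS, 0.0543 in 2m AS, 3.24 in the mixed library and 0 counts in WT, so early treated was at least 2684-fold higher when WT is set to a floor of 3 counts, and the exact counting interval of the ratio starts at 2182. Igha, the IgA heavy chain, was at 214 scaled CPM in early treated, 44.8 in 5m AS and 16.0 in WT, a ratio to WT of 13.4 (12.6 to 14.2). In early treated, 49.3% of 12348 Igha UMIs lay in the top 1% of spots. Unscaled Igha UMIs were 4341 in the mixed library, 3690 in late treated, 2655 in 5m AS and 1095 in WT. Igkc, the kappa light chain, was at 248 scaled CPM in early treated, 229 in 5m AS and 14.5 in WT. Ighm, the IgM heavy chain, went the other way between the Alport libraries, at 27.0 scaled CPM in early treated, 171 in 5m AS and 6.87 in WT. The mixed library was also above WT, at 120 scaled CPM for Igkc and 52.85 for Ighm. Over the 4 measured B and plasma cell genes, its median log2 ratio to WT was 2.996. That median was 3.93 in early treated, 4.31 in 5m AS, 1.44 in late treated and 0.43 in 2m AS. Whether these levels above WT belong to the disease was not tested. Constant region genes share sequence, so their counts could be split between them.

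Complement and acute phase genes formed a further group above WT, in which 12 of 15 measured genes (20 listed) were at least 1.5-fold higher and 0 lower, with a median log2 ratio of 1.84. C3 (ENSMUSG00000024164, mm10 chromosome 17, 57203970 to 57228136, minus strand), the central complement component, was at 267 scaled CPM in early treated, 118 in late treated, 387 in 5m AS, 24.3 in 2m AS, 24.1 in the mixed library and 12.0 in WT. It was 22.2-fold above WT (20.7 to 23.8). C4b, the classical pathway component, was at 75.2 scaled CPM in early treated, 53.4 in 5m AS and 7.33 in WT, and shares reads with its near copy C4a. Cfb, the alternative pathway protease, was the lowest of the list relative to WT, at 349 scaled CPM in early treated and 442 in WT.

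The fibrinogen chain genes, neighbours on chromosome 3 that encode the clot-forming plasma protein, were each above WT and above untreated 5m AS over whole sections. Fgg was at 71.5 scaled CPM in early treated, 31.2 in late treated, 54.1 in 5m AS, 20.2 in 2m AS, 11.5 in the mixed library and 3.69 in WT. Fga was at 57.2 scaled CPM in early treated, 50.9 in 5m AS and 3.82 in WT. Fgb was at 12.6 scaled CPM in early treated, 7.12 in 5m AS and 0.775 in WT. Fgg and Fga were above 5m AS in both proximal strata but below it in the distal tubule and collecting duct stratum. There Fgg and Fga were at 52.4 and 41.5 CPM in early treated, against 57.5 and 48.6 in 5m AS. In the thick ascending limb stratum Fgg was above 5m AS and Fga below it. The ratios to WT were 19.4 (17.1 to 22.1) for Fgg, 15 (13.2 to 17.1) for Fga and 16.2 (12.3 to 21.9) for Fgb. Socs3, the feedback inhibitor of cytokine receptors that signal through STAT3, was at 20.04 scaled CPM in early treated, 18.1 in 5m AS and 1.17 in WT, 17.1-fold above WT (13.7 to 21.8).

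The fibrinogen chains and Socs3 are textbook targets of STAT3, so their promoters are shown here from RefSeq on GRCm38.p6, 250 bases before to 50 bases after the gene start, 5′ to 3′ on the gene's strand. Capitals mark matches to the STAT-type motif TTCNNNGAA, searched on both strands. The windows are chr3:83025903-83026202 (plus) for Fga, chr3:83049814-83050113 (minus) for Fgb, chr3:83007474-83007773 (plus) for Fgg and chr11:117969317-117969616 (minus) for Socs3.
Fga: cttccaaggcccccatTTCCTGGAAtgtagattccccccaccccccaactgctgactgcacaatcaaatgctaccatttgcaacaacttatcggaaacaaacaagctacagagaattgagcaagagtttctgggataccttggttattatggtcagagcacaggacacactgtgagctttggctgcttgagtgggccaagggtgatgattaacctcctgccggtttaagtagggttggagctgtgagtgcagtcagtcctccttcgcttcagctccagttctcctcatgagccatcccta
Fgb: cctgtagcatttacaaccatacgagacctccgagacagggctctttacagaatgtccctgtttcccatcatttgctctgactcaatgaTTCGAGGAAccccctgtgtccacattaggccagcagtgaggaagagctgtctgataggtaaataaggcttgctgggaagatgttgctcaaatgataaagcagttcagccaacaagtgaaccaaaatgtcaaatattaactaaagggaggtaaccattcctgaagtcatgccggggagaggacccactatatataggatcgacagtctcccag
Fgg: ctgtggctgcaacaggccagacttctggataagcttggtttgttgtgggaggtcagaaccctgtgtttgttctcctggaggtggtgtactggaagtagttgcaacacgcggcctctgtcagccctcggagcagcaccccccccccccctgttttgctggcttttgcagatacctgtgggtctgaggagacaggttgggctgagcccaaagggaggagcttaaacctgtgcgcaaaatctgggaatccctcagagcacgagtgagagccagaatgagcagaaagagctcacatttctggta
Socs3: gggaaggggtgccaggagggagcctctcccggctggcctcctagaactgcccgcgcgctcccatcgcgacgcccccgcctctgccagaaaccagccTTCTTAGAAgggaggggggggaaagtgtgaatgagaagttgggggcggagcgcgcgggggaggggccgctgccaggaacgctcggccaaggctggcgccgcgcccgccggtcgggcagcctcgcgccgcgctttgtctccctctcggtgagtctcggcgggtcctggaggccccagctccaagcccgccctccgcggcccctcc
Fga, Fgb and Socs3 each held 1 match, starting at base 17, 89 and 97 of the window, and Fgg held 0. Among the 216 disease-higher genes still off WT, described below, 152 had a promoter in the table, with 198 start sites. Of those 198 windows 8.08% held the motif, against 8.30% of all 32851 promoters, so the group as a whole was at the background. The AP-1 motif TGANTCA was in 13.1% of the 198 windows and in 7.81% of all, and the NF-kB motif in 13.6% and 8.46%. These are descriptions of letters in a window and not of binding.

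Matrix genes were above WT as a group. Of 33 matrix and protease genes 29 were measured, 25 were at least 1.5-fold higher and 1 lower, and the median log2 ratio was 1.31. Timp1, an inhibitor of matrix metalloproteases, was at 49.96 scaled CPM in early treated, 17.8 in late treated, 84.5 in 5m AS, 10.5 in 2m AS, 3.91 in the mixed library and 0.980 in WT. Its ratio to WT was 51.0 (40.0 to 66.0). Ltbp2, a fibrillin-associated latent TGF-beta binding family protein, was at 33.3 scaled CPM in early treated, 57.5 in 5m AS and 0.410 in WT. Tnc, the wound matrix protein tenascin C, was at 24.0 scaled CPM in early treated, 31.8 in 5m AS and 1.99 in WT. The 1 lower member was Ltbp1, at 6.80 scaled CPM in early treated and 12.8 in WT, and Tgfb1 itself was at 16.8 in early treated and 16.0 in WT.

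Fibroblast markers had one of the highest list medians, a log2 ratio of 2.59, with 9 of 10 measured genes (11 listed) at least 2-fold higher. Among all 10608 genes past the same filter, 418 were higher by as much. Col1a1, the fibrillar collagen I alpha 1 chain, was at 124 scaled CPM in early treated, 117 in late treated, 211 in 5m AS, 33.5 in 2m AS, 12.0 in the mixed library and 16.8 in WT. Early and late treated were nearly level in Col1a1, whereas Col3a1 was at 179 scaled CPM in early treated, 109 in late treated, 323 in 5m AS and 23.4 in WT. Mgp, the matrix Gla protein that inhibits calcification, was at 2308 scaled CPM in early treated, 3304 in 5m AS and 417 in WT. Col14a1 was the exception, at 49.6 scaled CPM in early treated and 47.2 in WT. Col1a1 had a UMI in 47.6% of thinned early treated spots, 63.1% of 5m AS spots and 6.81% of WT spots.

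To ask which disease genes remained off the WT level, genes were first chosen in untreated 5m AS against WT, where 6795 genes were compared, 330 (4.86%) were higher by 2-fold or more and 283 (4.16%) lower by as much. The 2 comparisons share the WT library, so its own values enter both ratios. Of the 330 disease-higher genes, 216 (65.5%) were still at least 2-fold above WT in early treated, 70 were 1.5 to 2-fold above, 31 were within 1.5-fold and 13 were at least 1.5-fold below WT. In early treated and WT alike, 84 of the 330 were under 20 scaled CPM. Their median log2 ratio to WT was 1.31 in early treated, 0.86 in late treated and 1.77 in 5m AS, and 300 of them were lower in early treated than in 5m AS. The 5m AS values also chose these genes, which by itself favours a lower value in any other library. Set against WT in the same way, 145 of the 330 were at least 2-fold above in late treated, 59 in 2m AS and 74 in the mixed library.

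Of the 283 disease-lower genes, 92 (32.5%) were still at least 2-fold below WT in early treated, 109 were 1.5 to 2-fold below, 82 were within 1.5-fold and 0 were past WT. Their median log2 ratio was -0.81 in early treated, -0.64 in late treated and -1.25 in 5m AS, and 251 were higher in early treated than in 5m AS. Here too the genes were chosen by 5m AS, which by itself favours a higher value in any other library. In late treated 67 of the 283 were at least 2-fold below WT, in 2m AS 22, and in the mixed library 82. Against the mixed library as the reference, 141 of the 330 and 44 of the 283 were still off in early treated. With plain CPM the disease genes were other in number, 570 higher and 95 lower, of which 408 and 15 were still off. Just inside the 2-fold line lay Fxyd5 at 2.00-fold and Shmt2 at 0.4998 times WT, and just outside it Efemp2 at 1.99-fold and Susd2 at 0.501 times.

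**Figure D3:**
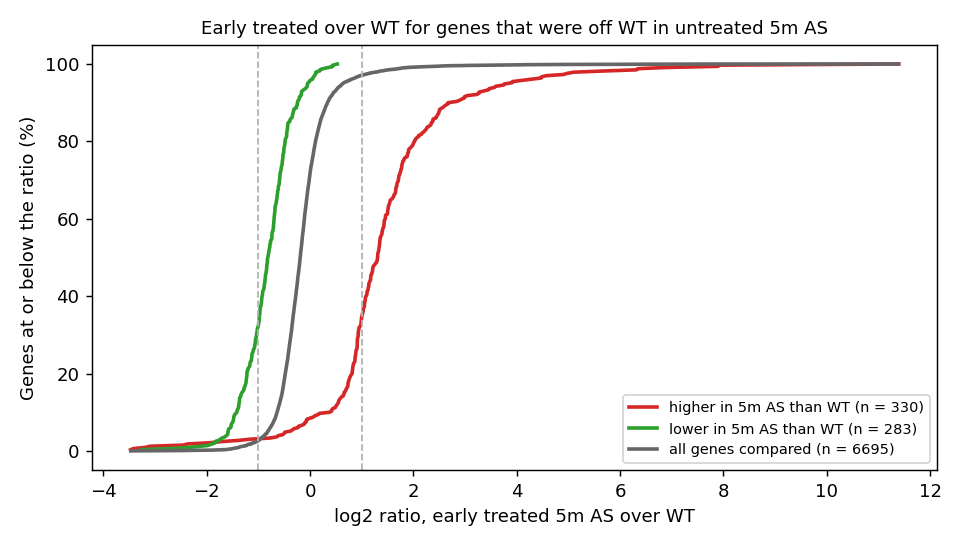
Cumulative share of genes by log2 ratio of early treated over WT, for 330 genes higher and 283 genes lower in untreated 5m AS and for all 6695 compared genes, with dashed lines at 2-fold. The median was 1.31 for disease-higher and -0.81 for disease-lower genes, against -0.19 for all compared genes.

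The classes fell along gene lists in different ways. Over all disease genes, 65.5% of the higher and 32.5% of the lower were still off, and 29.0% of the lower were within 1.5-fold of WT. Many lists held few disease genes, so their shares are coarse. Every disease gene of the fibroblast (7), MHC class II (7), S100 and annexin (6, higher) and B and plasma cell (4) lists was still off. The mixed library was itself far above WT in the B and plasma cell list, at a median log2 ratio of 2.996. In the fibroblast, MHC class II and S100 and annexin lists its median was 0.21, 0.58 and 0.31. For B and plasma cell genes, a level off this WT library is therefore not shown to be left over from disease. In the macrophage list 12 of 13 were still off, in the injury list 15 of 17, in the matrix list 18 of 21 and in the chemokine list 12 of 14. By contrast, of the disease-lower genes 6 of 7 in the distal convoluted tubule list and 6 of 8 in the early proximal tubule list were within 1.5-fold of WT. In the intercalated cell list 7 of 11 were still off and 4 partly off, in the late proximal tubule list 3 of 3 were still off, and in the thick ascending limb list 1 of 2.

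Distal convoluted tubule genes, which reclaim sodium, magnesium and calcium, lay close to WT over whole sections. The median log2 ratio of the 10 measured genes was -0.19 in early treated and -1.52 in 5m AS, and with plain CPM the early treated median was 0.27. Within strata the early treated median was -1.23 in the early proximal tubule, -1.26 in the late proximal tubule, 0.01 in the thick ascending limb and -0.18 in the distal tubule and collecting duct stratum, which held 35.2% of spots in early treated and 25.4% in WT. That distal stratum was assigned in part from the levels of this same list. Slc12a3, the thiazide-sensitive sodium chloride cotransporter, was at 509 scaled CPM in early treated, 583 in late treated, 229 in 5m AS, 405 in 2m AS, 748 in the mixed library and 699 in WT. Calb1, the calcium-binding protein calbindin, was at 480.0 scaled CPM in early treated, 165 in 5m AS and 499 in WT. Pvalb, the parvalbumin of the first distal segment, was the 1 disease-lower member still off, at 31.9 scaled CPM in early treated, 9.34 in 5m AS and 74.5 in WT.

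Early proximal tubule genes were also nearer to WT than in untreated disease, with a median log2 ratio of -0.48 in early treated and -1.41 in 5m AS. With plain CPM the early treated median was -0.03. Spots led by genes of this list, assigned from their own levels, were 37.6% in early treated, 18.6% in 5m AS and 19.6% in WT. Within the early proximal, late proximal, thick ascending limb and distal strata the early treated median was -0.47, -0.50, -0.37 and -0.81. In 5m AS it was -0.96, -1.8, -1.30 and -1.05 in the same strata. Slc5a12, a sodium-lactate cotransporter, was at 33.8 scaled CPM in early treated, 7.46 in 5m AS and 29.6 in WT. Slc5a2, the glucose transporter SGLT2, was at 361 scaled CPM in early treated, 144 in 5m AS and 523 in WT. Within those strata its log2 ratio of early treated over WT was -0.76, -1.33, -0.46 and -0.87. That is past 1.5-fold below WT in all but the thick ascending limb stratum. G6pc, the glucose-6-phosphatase that ends gluconeogenesis, was at 203 scaled CPM in early treated, 240 in late treated, 34.6 in 5m AS, 224 in 2m AS, 278 in the mixed library and 166 in WT. With plain CPM the log2 ratios were 0.65 for Slc5a12 and 0.75 for G6pc, beyond 1.5-fold. Slc34a1 and Slc6a19, the carriers of phosphate and neutral amino acids, kept some distance, at 0.556 (0.554 to 0.559) and 0.600 (0.586 to 0.614) times WT.

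The vitamin D enzymes split. Cyp24a1, which degrades active vitamin D, was at 63.4 scaled CPM in early treated, 240 in late treated, 5.65 in 5m AS, 156 in 2m AS, 81.4 in the mixed library and 47.1 in WT, so early treated was 1.35-fold WT (1.29 to 1.41), or a log2 ratio of 0.89 with plain CPM. Cyp27b1, which makes active vitamin D, was at 11.1 scaled CPM in early treated, 6.43 in 5m AS and 0.936 in WT, 11.9-fold above WT (9.20 to 15.6). Kl, the phosphate-regulating co-receptor klotho, was at 371 scaled CPM in early treated, 185 in 5m AS and 558 in WT.

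A few disease-higher genes were near WT. Agt, the angiotensin precursor, was at 30.7 scaled CPM in early treated, 31.5 in late treated, 150 in 5m AS, 56.6 in 2m AS, 41.3 in the mixed library and 33.0 in WT. Cldn19 and Cldn16, tight junction proteins through which the thick ascending limb takes up magnesium and calcium, were at 12.2 and 13.2 scaled CPM in early treated, 37.1 and 32.4 in 5m AS, and 14.3 and 13.8 in WT. Cyp4a10, a fatty acid hydroxylase with close paralogs, was at 88.2 scaled CPM in early treated, 300 in 5m AS and 114 in WT. With plain CPM the log2 ratios of Agt, Cldn19, Cldn16 and Cyp4a10 were 0.35, 0.23, 0.39 and 0.08, so their side of WT depends on the scaling. Kcnk1, a potassium channel, was at 34.4 scaled CPM in early treated and 24.1 in WT, and with plain CPM its log2 ratio of 0.97 was no longer near WT.

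Late proximal tubule genes were furthest below WT among the tubule lists. All 12 measured of 13 were at least 1.5-fold lower, 10 of them at least 2-fold, with a median log2 ratio of -1.52 in early treated and 0.12 in 5m AS. Among all 10608 genes past the same filter, 233 were at least 2-fold lower. The share of spots led by genes of this list, which was assigned from their own levels, was 13.4% in early treated, 22.4% in 5m AS and 48.6% in WT. Within the spots of that stratum the list's median log2 ratio was -0.89, and with both libraries weighted to the same strata it was -1.15. Against the mixed library it was at 0, and the mixed library, which is female, was itself at -1.07 relative to WT.

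Slc22a7 (ENSMUSG00000067144, mm10 chromosome 17, 46432183 to 46438457, minus strand), the organic anion transporter OAT2, had the lowest ratio of the compared genes that were named by rule. It was at 8.75 scaled CPM in early treated, 14.9 in late treated, 86.6 in 5m AS, 127 in 2m AS, 137 in the mixed library and 97.0 in WT. The 2 treated libraries were thus the 2 lowest, and early treated was 0.0902 times WT (0.0822 to 0.0987). Within the late proximal tubule stratum Slc22a7 was at 22.0 CPM in early treated, 160 in 5m AS and 140 in WT. Mep1b, a brush border metalloprotease subunit, was at 6.68 scaled CPM in early treated, 14.3 in late treated, 92.6 in 5m AS, 138 in 2m AS, 52.7 in the mixed library and 62.7 in WT. Slc7a13, an amino acid transporter subunit of the last proximal segment, was at 184 scaled CPM in early treated, 297 in late treated, 361 in 5m AS, 781 in 2m AS, 0.617 in the mixed library and 726 in WT. Slco1a1, an organic anion transporter, was at 111 scaled CPM in early treated, 39.0 in 5m AS, 0.0287 in the mixed library and 373 in WT, so Slc7a13 and Slco1a1 differed more between the mixed library and WT than between early treated and WT.

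**Figure D4:**
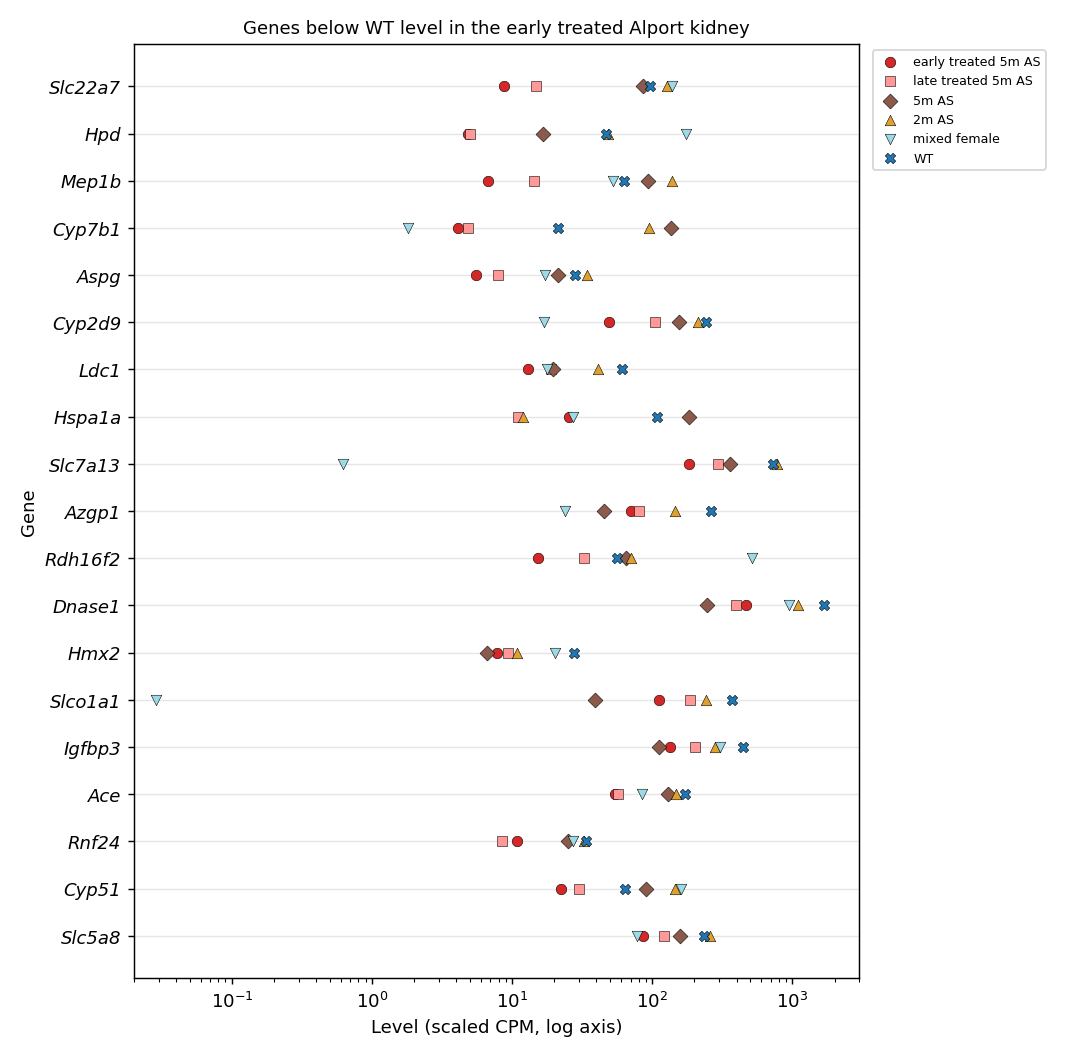
Levels of 19 genes below WT in the early treated kidney, in scaled CPM on a log axis, with 1 point per library. Slc22a7 was at 8.75 in early treated and 14.9 in late treated against 97.0 in WT, while Slc7a13 and Slco1a1 were lowest in the mixed female library.

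Further disease-lower genes still off lay outside the late proximal list. Hpd, an enzyme of tyrosine breakdown, was at 4.86 scaled CPM in early treated, 5.01 in late treated, 16.7 in 5m AS, 48.0 in 2m AS, 174 in the mixed library and 46.6 in WT. Dnase1, the secreted deoxyribonuclease, was at 468 scaled CPM in early treated, 399 in late treated, 247 in 5m AS, 1104 in 2m AS, 942 in the mixed library and 1672 in WT. Igfbp3, a binding protein for insulin-like growth factors, was at 134 scaled CPM in early treated, 203 in late treated, 112 in 5m AS, 282 in 2m AS, 303 in the mixed library and 444 in WT. Dnase1 was at 0.280 (0.276 to 0.284) and Igfbp3 at 0.302 (0.294 to 0.309) times WT, and in both genes all 3 libraries of 5-month Alport kidneys were the lowest. Egf, made in the thick ascending limb, was at 265 scaled CPM in early treated, 209 in 5m AS and 671 in WT.

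Intercalated cell genes, which run acid and base transport in the collecting duct, had a median log2 ratio of -1.16 in early treated and -1.89 in 5m AS, with 11 of 12 at least 1.5-fold lower in early treated. Slc26a4, the chloride-bicarbonate exchanger pendrin, was at 47.9 scaled CPM in early treated, 51.0 in late treated, 15.7 in 5m AS, 42.6 in 2m AS, 87.2 in the mixed library and 115 in WT. Foxi1, the transcription factor that specifies these cells, was at 17.3 scaled CPM in early treated, 15.9 in 5m AS and 42.1 in WT. Hmx2 was at 7.77 scaled CPM in early treated, 6.63 in 5m AS and 27.7 in WT. Aqp6 alone was not lower, at 29.6 scaled CPM in early treated and 26.9 in WT. Principal cell genes of the same duct had a median log2 ratio of -0.24, or 0.22 with plain CPM, with the water channel Aqp2 at 261 scaled CPM in early treated and 201 in WT.

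Some genes were off WT in early treated while within 1.5-fold of it in untreated 5m AS: 6 higher and 35 lower, and the same WT library enters both ratios. Among the lower were Slc22a7 and Mep1b, given above, and Ace, the angiotensin converting enzyme of the brush border. Ace was at 54.0 scaled CPM in early treated, 57.0 in late treated, 129 in 5m AS, 147 in 2m AS, 84.2 in the mixed library and 170 in WT, and early treated and late treated were the 2 lowest libraries. Cyp51, an enzyme of cholesterol synthesis, was at 22.2 scaled CPM in early treated, 91.0 in 5m AS and 64.0 in WT. Among the higher were Psat1, of serine synthesis, at 42.5 scaled CPM in early treated, 23.4 in 5m AS and 16.0 in WT, and Plat, tissue plasminogen activator, at 92.4 in early treated, 58.7 in 5m AS and 40.3 in WT. Psat1 and Plat were each 1.46-fold above WT in 5m AS, just inside the 1.5-fold line. Ccl21a, a lymphoid chemokine with close copies, was at 38.8 scaled CPM in early treated, 15.05 in 5m AS and 14.98 in WT.

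The remaining higher genes included Malat1, a nuclear-retained RNA, at 165 scaled CPM in early treated, 146 in late treated, 44.8 in 5m AS, 72.8 in 2m AS, 64.6 in the mixed library and 61.1 in WT. Gm42418, a predicted gene, was at 749 scaled CPM in early treated, 797 in late treated, 158 in 5m AS and 225 in WT. The 2 treated libraries were thus the highest in both, at medians per spot of 12736 and 18187 UMIs, against 26054 in 5m AS and 17790 in WT. Neat1, another nuclear-retained RNA, was at 392 scaled CPM in early treated and 437 in WT. The part of RNA quality in these values was not tested.

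Podocyte genes were on the higher side, with 5 of 14 measured at least 1.5-fold above WT, 0 below and a median log2 ratio of 0.56 in early treated and -0.11 in 5m AS. Nphs1, the slit diaphragm protein nephrin, was at 24.9 scaled CPM in early treated, 11.3 in 5m AS and 14.4 in WT, and Wt1, the podocyte transcription factor, at 15.2 in early treated, 8.86 in 5m AS and 10.2 in WT. How many glomeruli each section held was not determined, and the podocyte median was 0.25 in the early proximal tubule, -0.27 in the late proximal tubule, 0.39 in the thick ascending limb and 0.66 in the distal tubule and collecting duct stratum. Endothelial genes had a median log2 ratio of -0.28 in early treated and -0.35 in 5m AS, and the early treated median was 0.18 with plain CPM. The red blood cell list was lower in early treated than in every other library, with a summed level of 241 scaled CPM in early treated, 1702 in WT and 857 to 1766 in the other 4.

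**Figure D5:**
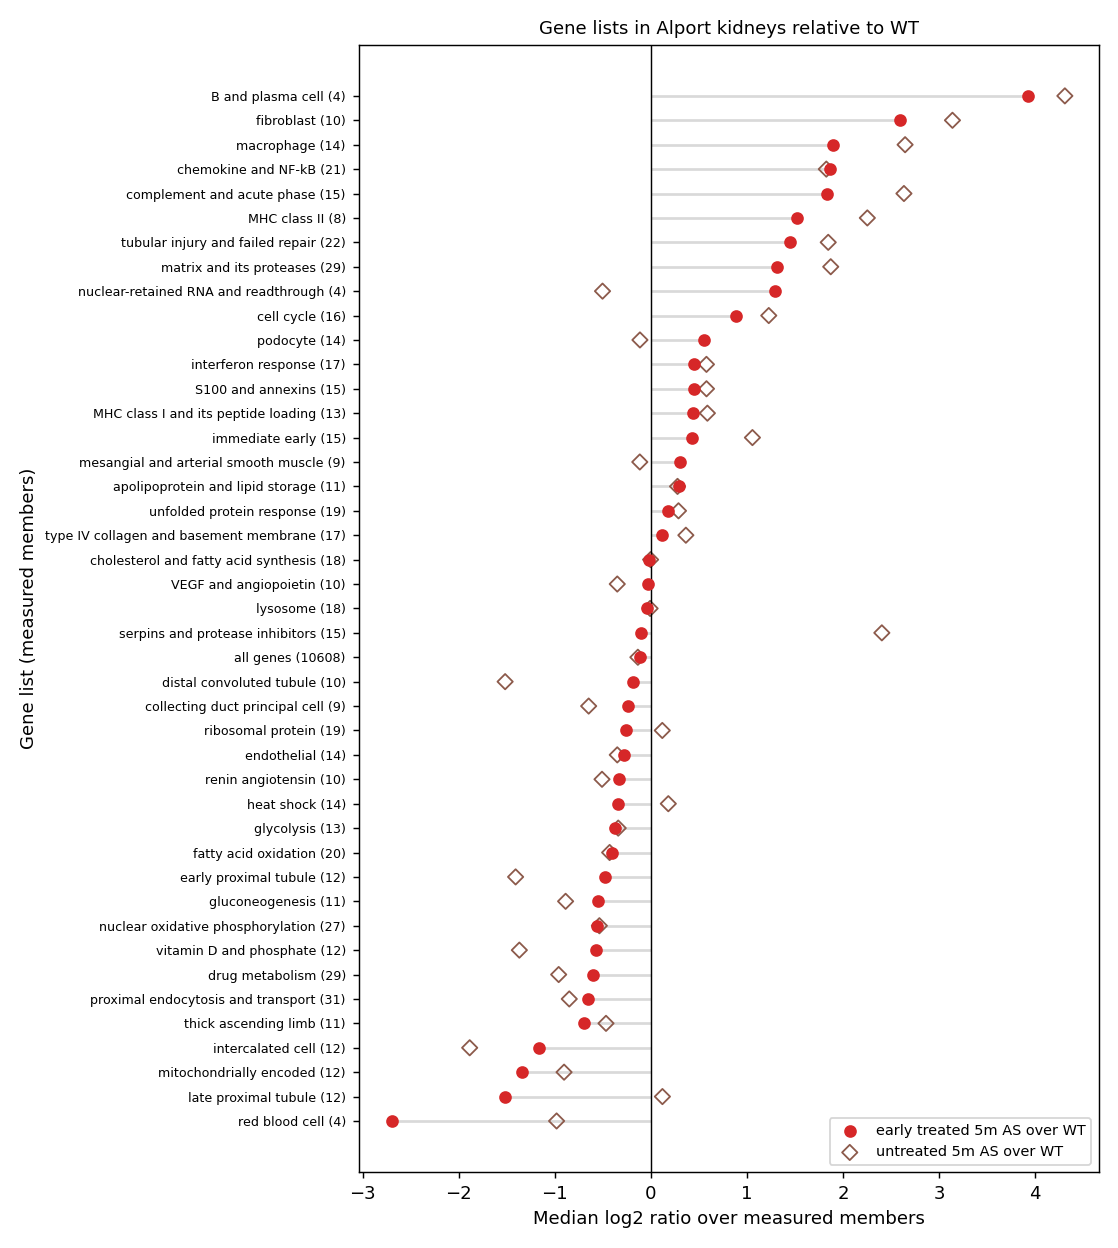
Median log2 ratio to WT over the measured members of each gene list, with filled points for early treated and open diamonds for untreated 5m AS, which share the WT library. Fibroblast, macrophage and injury lists were above 0 in both, distal convoluted tubule genes had medians of -0.19 for early treated and -1.52 for 5m AS, and late proximal tubule genes of -1.52 for early treated and 0.12 for 5m AS.

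The residual pattern was present across the spot strata. The median log2 ratio of early treated over WT for injury genes was 1.47 in the early proximal tubule, 0.90 in the late proximal tubule, 1.44 in the thick ascending limb and 1.60 in the distal tubule and collecting duct stratum. For macrophage genes it was 1.72, 1.36, 1.86 and 2.02, and for fibroblast genes 2.25, 1.99, 2.48 and 2.60 in the same strata. Havcr1 was spread over the strata, at 85.8, 105, 114 and 88.9 CPM in early treated, against at most 0.611 CPM in any WT stratum. Lcn2 leaned to the distal side, at 31.1 and 27.0 CPM in the proximal strata, 138 in the thick ascending limb and 80.8 in the distal and collecting duct stratum of early treated, against at most 0.687 in WT. Ccl2 was at 83.0 CPM in the early proximal and 33.7 in the late proximal stratum of early treated, against 0.916 and 0.931 in WT.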

How the data were processed

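Frozen mouse kidney sections were profiled on 10x Genomics Visium, with 1 library per group. The authors deposited raw UMI counts per gene and spot, made with Space Ranger 1.2.1 (WT and 5m AS) or 1.3.1 (the other 4), per the file headers, on mm10, per the submitters' processing notes. No source used here gives the annotation version or the strand handling.

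UMI counts were summed over all deposited spots, scaled with TMM factors over 6 libraries (edgeR 4.0.16, R 4.3.3; 1.18 for early treated, 0.858 for WT) and given as CPM of the effective library size (scaled CPM). Log2 ratios used a floor of 3 counts per library, 0.0521 scaled CPM in early treated and 0.0439 in WT. Levels within strata, given as CPM, are CPM of the stratum's UMIs divided by the library's TMM factor. Levels were compared between libraries and not between genes, which differ in length. With 1 library per group there is no test. Spots were thinned without replacement to 5000 UMIs (numpy, seed 1).

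Genes were named by rule: the 15 highest and 15 lowest ratios, the leading disease genes still off, near WT or past WT, those off in early treated alone, and up to 4 members of each list. Except for list members, predicted, ribosomal protein, mitochondrial, haemoglobin and immunoglobulin genes were left out. Except for list members and genes near WT, plain CPM and an equal weight per spot each had to leave the direction as it was and the ratio past 1.5-fold. Col4a3 to Col4a6 were always named. Other members of the 44 gene lists, Igha, Gm42418 and Ccl21a were named after their values were seen. Members and lists were chosen with earlier results of these data known. Close paralogs can share reads. Spot positions were not used.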

Additional observations from a re-analysis of the deposited data

Results flagged for a closer look

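Genes that were at least 2-fold above WT in untreated 5m AS and at least 1.5-fold below WT in early treated were marked because the 2 Alport libraries moved in opposite directions from the same WT library. There were 13, each with 1 library per group, and the difference was not tested. The largest moves were in Serpina1 genes, members of the alpha-1 antitrypsin family, in which close paralogs can share reads. Serpina1f was at 1.37 scaled CPM in early treated, 251 in 5m AS and 14.7 in WT, a log2 ratio of early treated over WT of -3.43. Serpina1d was at 1.35 scaled CPM in early treated, 232 in 5m AS and 11.6 in WT, a log2 ratio of -3.10. Serpina1a was at 0.920 scaled CPM in early treated, 107 in 5m AS and 5.06 in WT, a log2 ratio of -2.46. In late treated these genes were also below 2 scaled CPM, and in the mixed female library they were at 223, 7.30 and 7.73.

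Transporters of the proximal tubule behaved in the same way. Slc22a19 had a log2 ratio of -3.47, with 1.27 scaled CPM in early treated, 35.0 in 5m AS and 14.1 in WT. For Slc22a13 the log2 ratio was -3.20, from 2.08 scaled CPM in early treated, 68.8 in 5m AS and 19.1 in WT. Slc38a3, a glutamine carrier, had a log2 ratio of -1.39, with 3.80 scaled CPM in early treated, 58.5 in 5m AS and 9.95 in WT. Cyp7b1, an oxysterol hydroxylase (mm10 chromosome 3, 18071950 to 18243338, minus strand), had a log2 ratio of -2.37, with 4.13 scaled CPM in early treated, 135 in 5m AS and 21.3 in WT.

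Mettl7a2 had a log2 ratio of -1.94, followed by -1.71 for the heat-shock chaperone Hspa1b, -1.17 for the apolipoprotein Apoc3, -0.78 for the fatty acid desaturase Scd1, -0.65 for the prolactin receptor Prlr and -0.62 for the transcription factor Irx1. Scd1 was at 23.4 scaled CPM in early treated, 563 in 5m AS, 556 in the mixed library and 40.2 in WT. Prlr was at 1.09 scaled CPM in early treated, 28.0 in 5m AS, 105 in the mixed library and 1.71 in WT. In 2m AS, 12 of the 13 were above WT, with Hspa1b, at 16.1 scaled CPM in 2m AS and 114 in WT, as the exception.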

How the results depend on the processing

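The alternatives were set out with earlier results of these data known. Of 61 named genes, the 43 that were at least 2-fold off WT kept their direction under each scaling, spot weighting and depth filter, while 8 nearer to WT changed side with plain CPM, 2 with spots weighted equally and 3 with the strata standardised. For plain CPM and equal spot weight, the naming rule fixed the direction of the 43 in advance, except for Col4a5 and Col4a6. The other changes of scaling also move all ratios of early treated to WT by a common step, too small to turn a 2-fold difference. Only the depth filter, the standardised strata and the mixed library could have turned these genes, and equal spot weight Col4a5 and Col4a6. Against the mixed female library 7 of the 43 reversed, with log2 ratios of 1.19 for Cyp7b1, 1.54 for Cyp2d9, 8.22 for Slc7a13, 1.56 for Azgp1, 11.33 for Slco1a1, -0.28 for Gstp1 and 0.12 for Slc5a8, and the cause was not tested. The counts of genes at least 2-fold off WT, 195 higher and 179 lower, were 459 and 45 with plain CPM. Other settings that moved them by over 1.5 times gave 310 higher with spots weighted equally, 383 lower against the mixed library, 547 and 83 higher with minimums of 5 and 50 scaled CPM, 381 higher and 844 lower at 1.5-fold, and 96 higher and 29 lower at 3-fold. Disease-higher genes still off were 216, but 408 with plain CPM, 141 against the mixed library, 564 and 103 with minimums of 5 and 50, and 375 and 112 at 1.5 and 3-fold. Disease-lower genes still off were 92, but 15 with plain CPM, 44 against the mixed library, 43 when the disease genes came from 5m AS against the mixed library, 60 with a minimum of 50, and 481 and 9 at 1.5 and 3-fold. Genes off in early treated but near WT in 5m AS were 41, against 68 with the mixed library, 63 with a minimum of 5, 418 at 1.5-fold and 7 at 3-fold. List members at least 1.5-fold lower were 128, or 54 with plain CPM, and those higher 170, or 107 among members with a mean of 20 scaled CPM.

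Shares of early treated spots follow the depth by construction. Thinned to 2500 UMIs they were 15.7% for Havcr1, 13.3% for Lcn2, 25.6% for Vcam1, 13.4% for Timp1, 98.2% for Spp1, 43.3% for C3, 54.1% for Lyz2, 79.0% for Cd74, 30.9% for Col1a1, 40.0% for Col3a1 and 3.29% for Slpi. Unthinned they were 42.0, 38.1, 61.2, 38.4, 98.3, 79.6, 89.5, 96.0, 71.4, 77.4 and 12.0% in the same order. A second random draw gave 24.6% for Havcr1, 72.5% for Lyz2 and 92.3% for Cd74. No paired analysis was possible because each group has 1 library and no test was run, and no replicate could be left out.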

Other observations

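Several further gene groups differed between the early treated and WT libraries. Of 16 measured cell cycle genes 9 were at least 1.5-fold higher in early treated and 0 lower, with a median log2 ratio of 0.89 in early treated and 1.23 in 5m AS. Mki67, a marker of dividing cells, was at 8.75 scaled CPM in early treated, 6.17 in late treated, 13.4 in 5m AS and 2.68 in WT, and Cdkn1a, the cell cycle inhibitor p21, at 10.1 in early treated, 16.7 in 5m AS and 4.23 in WT. Apoe, the lipid carrier that macrophages also make, was at 890.3 scaled CPM in early treated, 1463 in 5m AS and 231 in WT. Ren1, the renin gene of juxtaglomerular cells, was at 63.3 scaled CPM in early treated, 84.0 in late treated, 35.6 in 5m AS, 42.4 in 2m AS, 186 in the mixed library and 169 in WT, with the 4 Alport libraries lowest.

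Serpina10, a protease inhibitor of coagulation, was a disease gene still off that fell short of the level asked for in early treated. It was at 17.7 scaled CPM in early treated, 6.86 in late treated, 34.6 in 5m AS, 1.63 in 2m AS, 1.004 in the mixed library and 0.0731 in WT, a ratio to WT of 242 with a counting interval from 103 to 746. Hspa1a and Hspb1, both heat-shock proteins, differed in direction. Hspa1a was at 25.4 scaled CPM in early treated, 10.9 in late treated, 184 in 5m AS, 11.9 in 2m AS, 27.2 in the mixed library and 108 in WT. Hspb1 was at 100.2 scaled CPM in early treated, 23.2 in late treated, 229 in 5m AS, 21.0 in 2m AS, 33.2 in the mixed library and 44.3 in WT.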
